A study of Mus musculus with 36 samples.

Results

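Methylation upstream of Ccnd1 was read in 2 stretches of DNA, one near the gene and one farther upstream. They comprised every Ccnd1 cytosine of the deposited methylation table, 59 of the 171 cytosines listed for 3 genes, and were separated by their distance from the transcriptional start site (TSS). The near block held 16 cytosines between 389 and 566 bp upstream of the TSS, and the far block held 43 cytosines between 1260 and 1643 bp upstream. All 59 had a value in each of the 36 samples, whereas 117 of the 171 did so over the whole table.

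The samples were C2C12 myotubes, which are multinucleated muscle cells formed in culture from a mouse myoblast line by lowering the serum. Electrical pulse stimulation (EPS), which makes the cells contract, was compared with unstimulated control cells, and both were collected 6 times: directly after the pulses (0 min) and 30, 60, 120, 180, or 240 min later. Each of the 12 groups held 3 samples, so that 18 control and 18 EPS-stimulated samples were compared. The labels give no genotype or agent other than EPS, and all samples come from the same line, so the replicates describe the spread of that line in culture. A contracting myotube culture lacks the nerves, blood vessels, and other cells of muscle.

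Ccnd1 encodes cyclin D1, the regulatory subunit that activates the kinases CDK4 and CDK6 and so lets a cell pass from G1 towards DNA synthesis. In muscle precursors it keeps cells dividing, and it is withdrawn as myotubes form. DNA methylation in mammals is found mainly at cytosines followed by guanine (CpG). CpG-rich promoters of genes in use are usually little methylated, and methylation usually increases away from the promoter. Bisulfite converts unmethylated cytosine so that it is read as thymine, while methylated and hydroxymethylated cytosine both stay cytosine, and the assay does not tell the latter apart.

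Ccnd1 (ENSMUSG00000070348.5) lies on the minus strand of mouse chromosome 7, at chr7:144929931-144939925 in GRCm38 (mm10). Distances were counted from the TSS of the deposited table, at position 144939869. Since the gene runs on the minus strand, the positive distances of the table point upstream, into DNA where no gene is annotated. The near block spans chr7:144940258-144940435, or 178 bp. It lies inside a PCR amplicon of 261 bp at chr7:144940233-144940493 that begins 308 bp upstream of the annotated 5′ end of Ccnd1. The far block spans chr7:144941129-144941512, or 384 bp, beginning 1204 bp upstream of the same 5′ end. Its amplicon, at chr7:144941274-144941507, is only 234 bp long. Each primer had 1 perfect match in the bisulfite-converted genome, on the converted minus strand, and all 59 listed cytosines are on that strand.

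The primers define which cytosines the reaction could read, and they are given here 5′ to 3′ because much of the comparison between the blocks turns on them.
near forward: aggttggggattttttaaagtttag
near reverse: tacaaaaacaccctattcttaaacc
far forward: tttggttaggttagtttgtttagtt
far reverse: aaacaataattccactataactcc
The genomic minus strand of the near block and of the far amplicon follows, from the end farther from the gene towards the gene, with each listed CpG cytosine in capitals (12 and 13, respectively).
near block: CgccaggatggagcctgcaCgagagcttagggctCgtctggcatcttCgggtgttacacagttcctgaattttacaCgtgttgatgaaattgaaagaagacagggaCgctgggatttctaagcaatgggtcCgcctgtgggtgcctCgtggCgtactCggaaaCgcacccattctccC
far amplicon: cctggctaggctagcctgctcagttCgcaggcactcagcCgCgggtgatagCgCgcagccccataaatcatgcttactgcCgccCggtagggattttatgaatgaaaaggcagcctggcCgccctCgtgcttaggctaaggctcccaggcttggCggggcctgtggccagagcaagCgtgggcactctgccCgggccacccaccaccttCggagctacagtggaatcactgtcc

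In the near block, 12 cytosines were CpG sites and 4 were in a CHG context, where H is any base other than G, and all 16 lay between the primers. In the far block, 25 were CpG sites, 16 were CHG, and 2 were CHH. Of its 43 cytosines, 23 lay between the primers, 6 lay within a primer sequence, and 14 lay outside the amplicon. Of these 14, 13 were on the gene side, from 1260 to 1404 bp, and the other, at 1643 bp, was past the opposite end. The blocks were alike in CpG density, with 6.18 CpG per 100 bp in the near block and 6.25 in the far block. The ratio of observed to expected CpG was 0.840 and 0.653, and the GC content was 54.5% and 62.0%.

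The listed values were not separate readings of single cytosines. Across the 36 samples, neighbouring cytosines had a median correlation of 0.998 in the near block and 0.996 in the far block, as a description over sites that share a library. The first and last cytosines of a block were far less alike (r = 0.208 and 0.353). Cytosines in a CHG or CHH context took values on the line between their CpG neighbours. The largest departure from that line was 3.98% of its value over 4 such cytosines in the near block and 6.72% over 18 in the far block. The unit of comparison was therefore the mean over a block in each sample, with the sample as the replicate.

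Methylation was low in both blocks. Over the 36 samples the block mean was 1.92% ± 0.651 (SD) in the near block and 3.32% ± 0.235 (SD) in the far block. The near block ranged 5.81-fold between samples, from 0.730% to 4.24%, and both of these extremes were control samples at 120 min. The far block ranged 1.32-fold, from 2.83% to 3.74%. Over all listed cytosines, the near block was lower by 1.40 percentage points on average, and the far block was the higher of the pair in 34 of 36 samples (permutation test with sign flips, two-sided, p = 1e-05, the smallest that 100000 resamples can give). The test counts the 36 samples as independent, although the far level followed the replicate number, as given below. Its p may therefore be too small. With CpG sites alone, the near block was lower by 2.59 percentage points, and the far block was the higher in 36 of 36 samples.

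The order of the blocks depended on which cytosines of the far block were counted. Between its primers the far block had a mean of 0.420% ± 0.0777 (SD, n = 36; 0.253% to 0.578%). Outside its amplicon the mean was 8.95% ± 0.612 (7.79% to 10.1%), higher than between the primers in 36 of 36 samples, and these 14 cytosines carried 87.7% of the summed methylation of the block. With only the cytosines between primers, the near block was the higher one, by 1.50 percentage points, in 36 of 36 samples (permutation test, p = 1e-05). On the log2(beta/(1 − beta)) scale, where beta is methylation as a fraction and low cytosines weigh as much as high ones, the near block was also the higher, by 0.51 (31 of 36 samples; permutation test, p = 0.00011). These tests also count the 36 samples as independent. Whether reads covered the cytosines outside the amplicon, or their values were carried over from neighbouring cytosines, was not tested.

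**Figure D1:**
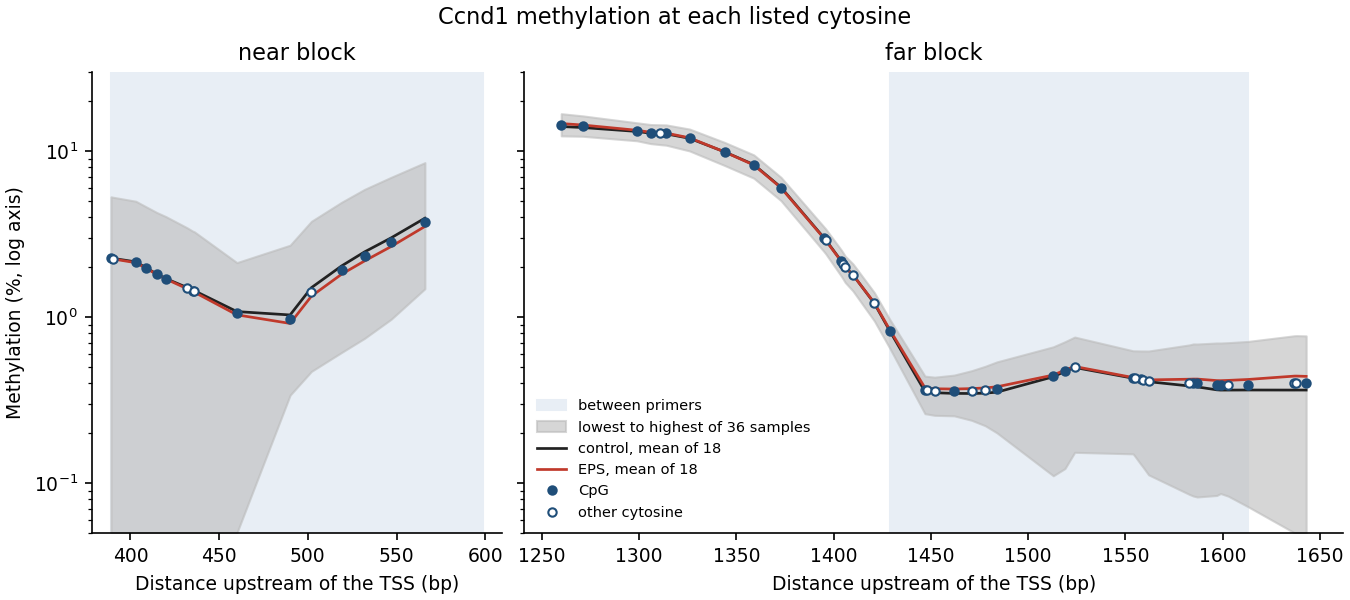
Methylation (%, log axis) at each listed Ccnd1 cytosine against its distance upstream of the TSS (bp), with lines for the mean of 18 control and 18 EPS-stimulated samples, points for the mean of all 36 (filled, CpG; open, other), and grey for the lowest to highest sample (values below 0.05% are drawn at the lower edge). The near block falls to 0.974% at 490 bp and climbs again, while the far block drops from 14.4% at 1260 bp to 0.358% at 1462 bp, ahead of and into the stretch between its primers (blue).

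The blocks had different shapes. The near block was V-shaped. Its mean was 2.27% at 389 bp, the first cytosine after the reverse primer, fell to 0.974% at 490 bp, and reached its highest value, 3.74%, at 566 bp, the last cytosine. The highest cytosine was 3.84-fold above the lowest, and the largest step between neighbours was the last one, from 2.84% at 547 bp to 3.74% at 566 bp. The cytosine at 566 bp was the highest of the block in 33 of 36 samples and exceeded the lowest mean cytosine, at 490 bp, in 36 of 36. Both ends were above it in 32 of 36. The lowest cytosine of a sample was at 490 bp in 18 samples and at 460 bp in 13.

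The far block fell steeply away from the gene and then stayed flat. Its first cytosine, at 1260 bp, was the highest in 36 of 36 samples, with a mean of 14.4% (12.4% to 16.9%). The largest step was from 6.05% at 1373 bp to 3.01% at 1395 bp, still outside the amplicon. Methylation was 2.17% at 1404 bp, the last cytosine before the reverse primer, 2.09% at 1405 bp, the first base of the amplicon, and 0.830% at 1429 bp, the first cytosine between the primers. The lowest mean, 0.358%, was at 1462 bp, 40.3-fold below the first cytosine. From there to the far end the profile was shallow, with 0.392% at 1613 bp, the last cytosine between the primers, 0.402% at 1638 bp, the last base of the amplicon, and 0.401% at 1643 bp.

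A line fitted to each sample summarised these gradients. The near slope was 0.464 ± 0.865 percentage points per 100 bp (SD, n = 36) and was above 0 in 30 of 36 samples. It ranged from −2.86 in EPS-stimulated replicate 3 at 30 min to 1.88 in control replicate 3 at 120 min, so the tilt of the V was not stable between samples. The far slope was −3.57 ± 0.238 (SD, n = 36) and below 0 in 36 of 36 samples. Between the far primers alone it was −0.0350 on average. EPS-stimulated and control slopes overlapped at each of the 6 time points in both blocks (exact permutation test, p from 0.3 to 1.0). On the log2(beta/(1 − beta)) scale, the far slopes at 60 min did not overlap, with −1.86 in control and −1.63 in EPS-stimulated cells (difference 0.24 per 100 bp, exact permutation test, p = 0.1). Dropping control replicate 3 gave 0.14. Averaged over the time points, the EPS minus control difference in slope was −0.221 percentage points per 100 bp in the near block (permutation test within time points, p = 0.419) and −0.0458 in the far block (p = 0.558). With a replicate number left out, the former lay between −0.356 (number 3) and −0.112 (number 1), and the latter between −0.0858 (number 1) and −0.0203 (number 3). The largest single difference, −1.32 in the near block at 30 min, shrank to −0.375 without EPS-stimulated replicate 3.

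The time course allows EPS-stimulated and control cells to be compared at each time after contraction. The near block is given first, with the value of every sample. At 0 min the control samples had 2.46%, 1.87%, and 1.48% and the EPS-stimulated samples 1.46%, 1.51%, and 1.56%. At 30 min they had 2.00%, 1.57%, and 1.27% against 1.97%, 2.00%, and 2.84%. At 60 min they had 2.98%, 1.62%, and 1.42% against 2.83%, 1.64%, and 1.86%. The EPS-stimulated samples were thus mostly at the low end of the control range at 0 min and at its high end at 30 min, with overlap at each of these times. At 120 min the control samples had 4.24%, 1.25%, and 0.730%, and the EPS-stimulated samples had 2.29%, 1.33%, and 0.905%. At 180 min they had 2.28%, 1.50%, and 2.08% against 1.96%, 1.99%, and 1.74%. At 240 min they had 1.82%, 2.43%, and 2.66% against 2.01%, 1.69%, and 2.06%. The control group at 120 min alone spanned the whole range of the 36 samples. In its replicate 3, the 9 cytosines from 389 to 436 bp were listed at 0.

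The mean differences in the near block changed sign along the time course, and the groups overlapped at each time. The difference was larger than the pooled SD of the replicates at 0 min (0.353), 30 min (0.436), and 240 min (0.338), and smaller at the other 3 times. EPS minus control was −0.423 percentage points at 0 min (1.94% ± 0.496 against 1.51% ± 0.0506, SD, n = 3 each; exact permutation test, p = 0.3). It was 0.656 at 30 min (exact p = 0.3), 0.103 at 60 min (exact p = 0.7), −0.568 at 120 min (exact p = 0.9), −0.0560 at 180 min (exact p = 0.8), and −0.385 at 240 min (exact p = 0.3). With 3 samples against 3, this test cannot give a p below 0.1, which needs groups that do not overlap. Of the 30 comparisons of 5 regions and 6 time points over the 3 genes, 3.33% had groups that did not overlap. By time point this was 20% of the 5 regions at 120 min, with EPS higher, and 0% at each other time. None of the 6 in the near block and none of the 6 in the far block did. All of these 12 had a Benjamini-Hochberg adjusted p of 1.0 in the exact permutation test. Single samples moved these differences. At 0 min, leaving out control replicate 1 gave −0.160 and leaving out control replicate 3 gave −0.653. At 30 min, 0.373 remained when EPS-stimulated replicate 3 was dropped. At 240 min, dropping control replicate 1 gave −0.625, and dropping control replicate 3 gave −0.205. The sign turned at 60 min when control replicate 2 (−0.0922), control replicate 3 (−0.191), or EPS-stimulated replicate 1 (−0.257) was dropped. It turned at 120 min without control replicate 1 (0.516), and at 180 min without control replicate 1 (0.107), control replicate 3 (0.00785), or EPS-stimulated replicate 3 (0.0222). The mean over the 6 time points was −0.112 percentage points (permutation test within time points, p = 0.665; 0.105 without replicate 1), and the sum of squared differences, which counts moves in either direction, gave p = 0.724.

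**Figure D2:**
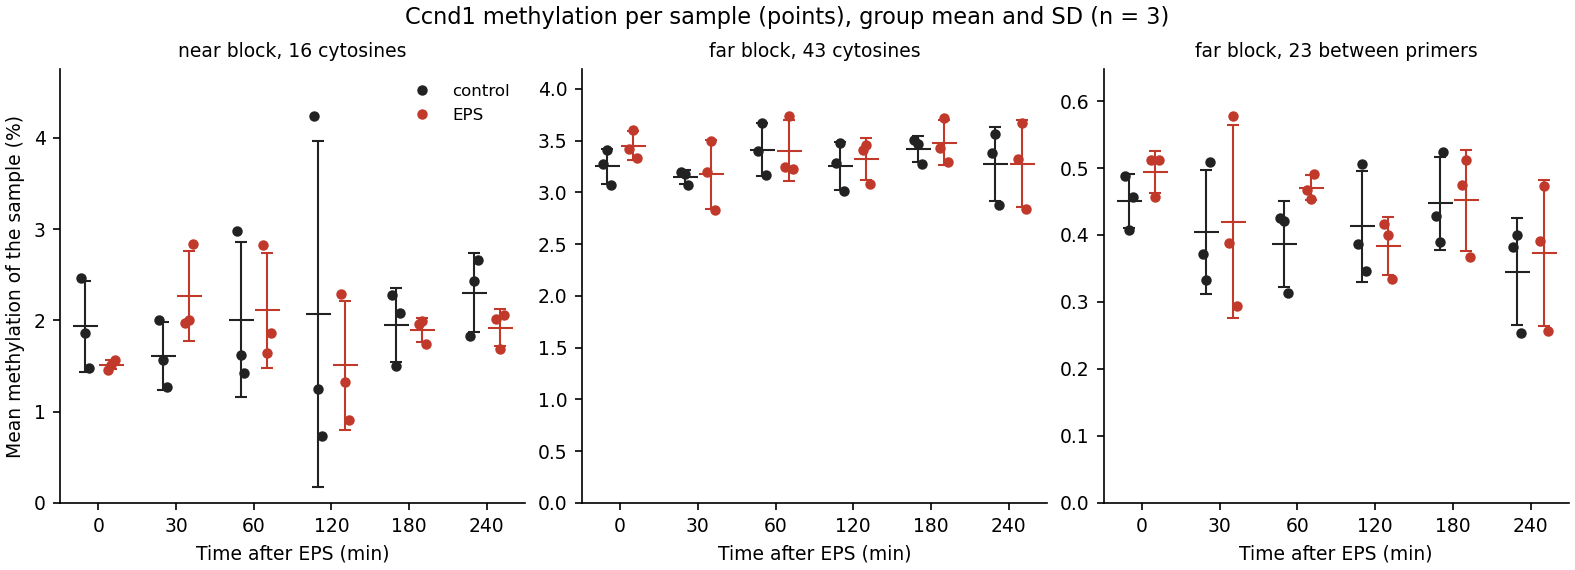
Mean methylation (%) of each sample by time after EPS (min), for the near block, the far block, and the 23 far cytosines between primers, with points for the 3 samples of a group and bars for the group mean and SD. Control and EPS-stimulated samples overlap at every time point in the near and far blocks, and the 23 cytosines do not overlap at 60 min.

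In the far block at 0 min, the control samples had 3.27%, 3.41%, and 3.07%, and the EPS-stimulated samples had 3.42%, 3.60%, and 3.33%. At 30 min they had 3.19%, 3.18%, and 3.07% against 3.20%, 3.49%, and 2.83%. At 60 min they had 3.40%, 3.67%, and 3.16% against 3.24%, 3.74%, and 3.23%. At the first of these times the EPS-stimulated samples lay in the upper part of the joint range, and later they were spread through it. At 120 min the control samples had 3.28%, 3.48%, and 3.02%, and the EPS-stimulated samples had 3.41%, 3.46%, and 3.09%. At 180 min they had 3.51%, 3.47%, and 3.27% against 3.43%, 3.72%, and 3.30%. At 240 min they had 3.38%, 3.57%, and 2.88% against 3.32%, 3.67%, and 2.84%. At each of these later times EPS-stimulated values lay both above and below control values.

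The far level followed the replicate number across the 12 groups. Replicate 3 was the lowest of its group in 12 of 12 groups and replicate 2 the highest in 10 of 12, with means of 3.34%, 3.54%, and 3.09% for replicates 1, 2, and 3 (n = 12 each). Outside the amplicon the means were 8.98%, 9.54%, and 8.33%, again with replicate 3 the lowest in 12 of 12 groups, whereas between the primers it was the lowest in 7 of 12. In the near block the means were 2.36%, 1.70%, and 1.72%, and replicate 1 was the highest in 7 of 12 groups. The study describes its data as independent experiments, and whether a number marks such an experiment is not given in the labels. The tests without pairing therefore count these offsets as spread. Within replicates 1, 2, and 3, the mean EPS minus control difference over the 6 times was −0.00300, 0.153, and 0.0230 percentage points in the far block, and −0.547, −0.00999, and 0.220 in the near block. The near mean of replicate 1 rests largely on −1.96 at 120 min, where its control sample had 4.24%. At 0 min the far differences within a number were 0.146, 0.193, and 0.263, all positive (exact sign-flip permutation test, p = 0.25, the smallest that 3 pairs allow). Paired by number, the far difference over all times had p = 0.115 (permutation test with sign flips).

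Without regard to the number, the far differences were between −0.0104 percentage points at 60 min and 0.201 at 0 min (exact permutation test, p from 0.2 to 1.0). At 0 min the far difference was larger than the pooled SD of the replicates (0.156), and at the other 5 times it was smaller. For that time, 0.110 remained when control replicate 3 was dropped, 0.125 when EPS-stimulated replicate 2 was dropped, and 0.0429 when the mean was taken between primers. The mean over the 6 time points was 0.0575 (permutation test within time points, p = 0.463), and the sum of squared differences gave p = 0.962. Without replicate 2 this mean was 0.010, and without replicate 1 it was 0.0878. Between the far primers the difference was 0.0846 percentage points at 60 min, where the control samples had 0.386% ± 0.0638 and the EPS-stimulated samples 0.471% ± 0.0191 (SD, n = 3 each). These groups did not overlap, which gives the smallest p the exact permutation test allows (p = 0.1). Dropping control replicate 3 gave 0.0477. At the other 5 times they overlapped (exact permutation test, p from 0.3 to 1.0), and over all 6 the difference was 0.0245 (permutation test, p = 0.324). Outside the amplicon it was 0.127 percentage points (permutation test, p = 0.532).

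**Figure D3:**
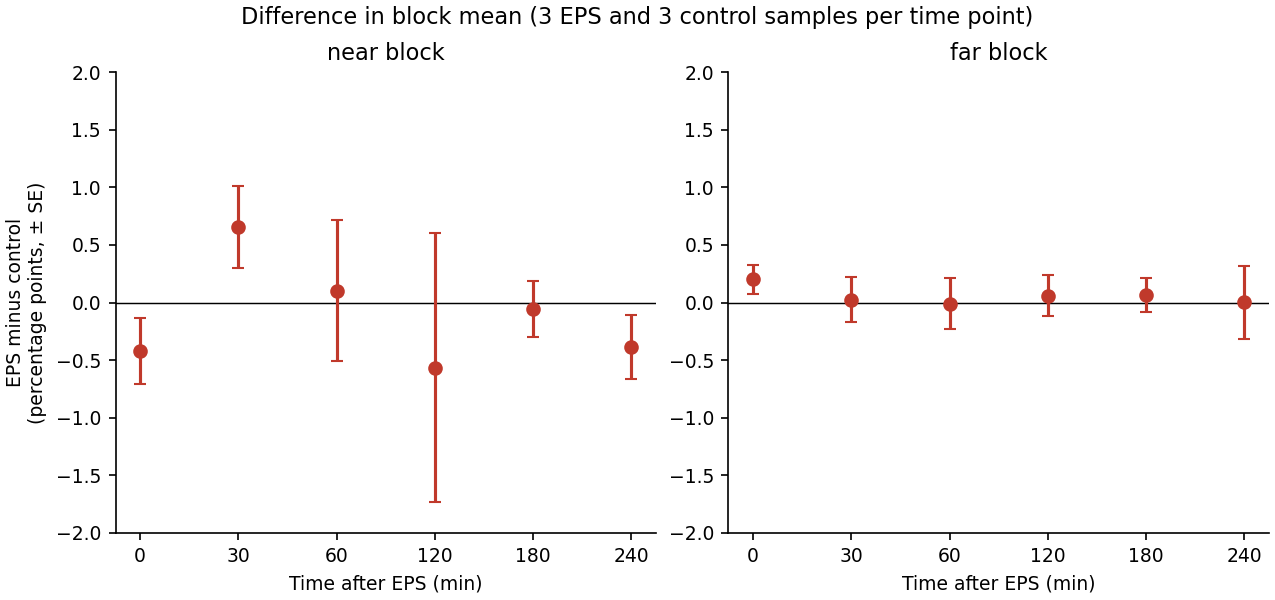
EPS minus control difference in block mean (percentage points) by time after EPS (min), with bars for the standard error of the difference between 3 and 3 samples. The near block ranges from −0.568 to 0.656 and changes sign, while the far block stays between −0.0104 and 0.201.

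Neither block passed a test of change with time within a treatment. Near-block means ranged from 1.61% at 30 min to 2.30% at 240 min in control cells (permutation test, p = 0.977) and from 1.51% at 120 min to 2.27% at 30 min in EPS-stimulated cells (p = 0.279). Far-block means ranged from 3.15% at 30 min to 3.42% at 180 min in control cells (permutation test, p = 0.652) and from 3.17% at 30 min to 3.48% at 180 min in EPS-stimulated cells (permutation test, p = 0.765). These tests of 18 samples each do not show that the levels were constant.

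The difference between the blocks in the EPS effect was tested in itself, on the log2(beta/(1 − beta)) scale within each sample. It was −0.49 at 0 min, where near methylation was 0.38 lower and far methylation 0.11 higher after EPS, and this was the lone time with groups that did not overlap (exact permutation test, p = 0.1, adjusted p = 0.6 over 6 times). Between primers it was −0.51 and the groups overlapped (exact permutation test, p = 0.2). It was 0.43 at 30 min (p = 0.5), −0.06 at 60 min (p = 0.8), 0.13 at 120 min (p = 0.9), −0.02 at 180 min (p = 1.0), and −0.31 at 240 min (p = 0.6) in the same exact permutation test. At 30 min, dropping replicate 3 of the EPS-stimulated cells gave 0.14, and dropping replicate 3 of the controls gave 0.19. At 240 min, dropping control replicate 3 gave −0.0027, and dropping replicate 2 of the EPS-stimulated cells gave −0.055. Over all time points it was −0.05 (permutation test, p = 0.823). No difference between the blocks in EPS effect passed a test, and at single times the test could not give a p below 0.1.

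The SD between replicates was the larger in the near block in most groups, but the test did not pass 0.05. On the log2(beta/(1 − beta)) scale, the median SD over the 12 groups of 3 was 0.343 in the near block (0.0743 in EPS-stimulated cells at 0 min to 1.95 in control cells at 120 min) and 0.179 in the far block (0.0432 to 0.469). The 1.95 depends on the limit of 0.001 on beta, because 9 near cytosines of control replicate 3 at 120 min were listed at 0. The near SD was the larger in 8 of 12 groups, 1.86-fold on average (exact sign-flip permutation test over groups, p = 0.0986, adjusted p = 0.132 over 4 comparisons with other regions). On the percent scale it was the larger in 9 of 12 groups (1.90-fold, exact permutation test, p = 0.0474). Between primers only, the ratio was 1.33 (exact permutation test, p = 0.416). Over all cytosines, it was 1.05 without replicate 1, 3.16 without replicate 3 (exact permutation test, p = 0.0166), 1.61 without the control group at 120 min (p = 0.188), and 1.86 with the means of the replicate numbers removed (p = 0.143). In percent, the median coefficient of variation was 22.4% in the near block and 6.64% in the far block. Compared with the other regions of the table, the near SD was 1.97-fold that of Ppard at 706 to 852 bp (exact permutation test, p = 0.0498, adjusted p = 0.132) and did not pass the test against the regions of Nr4a3 (0.662-fold, p = 0.0918) and Ppard at −300 to −127 bp (0.664-fold, p = 0.248).

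**Figure D4:**
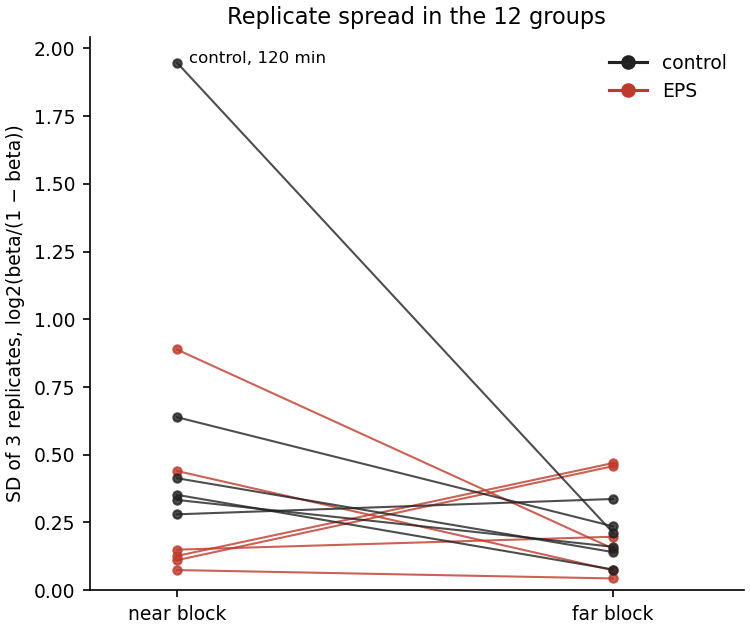
SD of the block mean over the 3 replicates of each of the 12 groups, on the log2(beta/(1 − beta)) scale, with a line joining the near and far blocks of a group. The near SD is the larger in 8 of 12 groups, and control cells at 120 min stand at 1.95, a value that depends on the limit of 0.001 on beta.

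No relation between the blocks passed a test across samples. Across the 36 samples, deviations from the group means had a Pearson r of −0.0568 (permutation within groups, p = 0.789) and a Spearman rho of −0.113 (p = 0.589). Without the samples farthest from the median, control replicates 1 and 3 at 120 min, r was −0.207, and with the means of the replicate numbers removed it was −0.186. Inside the far block, neighbouring cytosines were correlated across the inner edge of the reverse primer (r = 0.977 between 1421 and 1429 bp). The cytosines between the primers and those outside the amplicon were therefore not separate readings. Deviations of their means had r = 0.472 (permutation test, p = 0.0252, adjusted p = 0.101 over 4 relations) and rho = 0.436 (p = 0.0373, adjusted p = 0.149). Neither passed after adjustment. Without the 2 farthest samples, replicates 2 and 3 of EPS-stimulated cells at 30 min, r was 0.390, and with the means of the replicate numbers removed, over all 36, it was also 0.390 (permutation test, p = 0.0617).

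The sides of the V in the near block were also described apart, split at its lowest cytosine, at 490 bp, after the profile was seen, so they carry no test. On the gene side, 10 cytosines from 389 to 460 bp had a mean of 1.76% (0.00383% to 4.06%). On the far side, 5 cytosines from 502 to 566 bp had a mean of 2.45% (0.857% to 6.03%), the higher of the pair in 31 of 36 samples. Their deviations had r = 0.449 over the 36 samples and 0.0326 without the control group at 120 min. At 30 min the gene side had 1.19% to 1.69% in control samples and 1.93% to 4.06% in EPS-stimulated samples, a mean difference of 1.22 percentage points and no overlap. This was 1 of 12 such comparisons of a side and a time (8.33%). At the other 5 times the gene-side difference was between −0.505 at 240 min and −0.0766 at 180 min. Its sign turned at 60, 120, and 180 min with single samples left out, and dropping control replicate 1 gave 0.504, 0.727, and 0.145 at these times. At 240 min, −0.0690 remained when control replicate 3 was dropped, and at 0 min, −0.118 remained when control replicate 1 was dropped. On the far side at 30 min the difference was −0.326 and the groups overlapped, with 1.54% to 2.79% in control samples and 0.857% to 2.33% in EPS-stimulated samples. Without EPS-stimulated replicate 3 the difference was 0.544 on the gene side and 0.100 on the far side, and without control replicate 1 it was 0.0495 on the far side. At the other times the far-side difference ranged from −1.13 at 120 min to 0.426 at 60 min. Dropping control replicate 1 at 120 min gave 0.181, dropping control replicate 3 at 60 min gave 0.0357, and the sign at 180 and 240 min also turned with single samples left out.

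**Figure D5:**
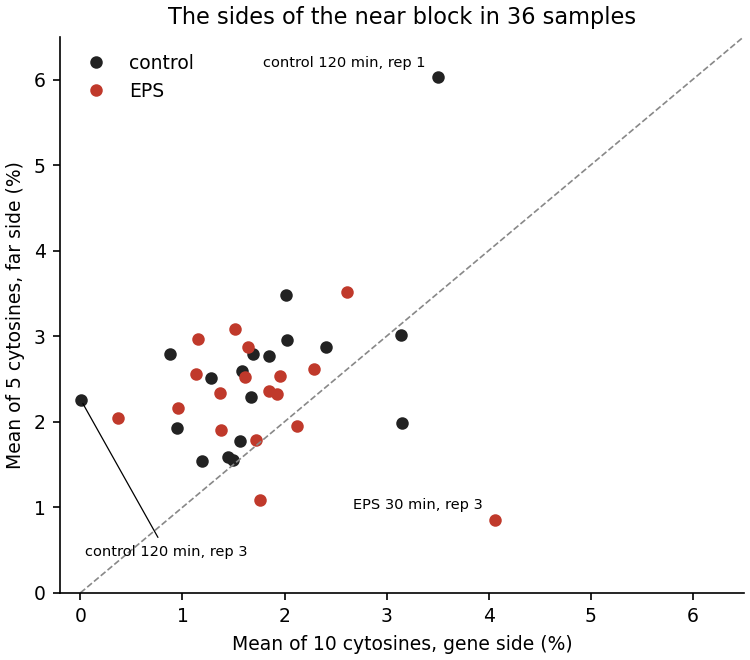
Mean methylation (%) of the 5 far-side cytosines against that of the 10 gene-side cytosines of the near block in each of the 36 samples, with the line of equality dashed. The far side is the higher in 31 samples, and EPS replicate 3 at 30 min stands apart on the gene side.

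Single cytosines gave no call. The limma model held 702 tests, 117 cytosines at 6 time points, of which 354 were for Ccnd1, and the adjusted p was under 0.05 in 0 of them. At an unadjusted p under 0.05 there were 3 of the 702, or 0.427%, and none was in Ccnd1. This count rested on the samples used. With replicate 1 left out there were 5, of which 1 was in Ccnd1, with replicate 2 left out there were 27 and 7, and with replicate 3 left out there were 25 and 9, all with 0 adjusted calls in limma. The smallest p in the far block was at 1519 bp at 120 min, a CpG site between the primers, with a log2 difference of −0.62 (SE 0.36) and limma adjusted p of 1.00. It was −0.19 without replicate 3. The smallest in the near block was at 490 bp at 60 min, the lowest cytosine of the V, with a log2 difference of 0.84 (SE 0.51) and limma adjusted p of 1.00. It was 0.49 without replicate 3. With beta held 0.01 rather than 0.001 from 0 and 1, the difference was 0.08 at the near cytosine and 0 at the far one, whose methylation lies below that limit in each sample. At 0 min and at 240 min the EPS-stimulated mean was the lower at all 16 near cytosines, but as the cytosines of a block move together, these 16 are not separate measurements.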

How the data were processed

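Genomic DNA of 36 C2C12 samples was bisulfite-converted, amplified with primers for 3 genes, and sequenced. Reads were trimmed by the authors (Trim Galore 0.3.7, Cutadapt 1.4.2) and aligned with Bismark, using Bowtie2, against mm10. The deposited values are methylation in percent per cytosine and sample. Whether they were smoothed along the DNA, and which reads cover each cytosine, is not stated in the sources used here. Read counts and coverage were not used here, so depth is unknown, and no interval or coverage minimum could be given. The deposited p-values of the authors' own comparisons were not used.

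Primers were matched to the converted GRCm38 genome. Cytosines more than 200 bp apart were taken as separate blocks. Block means per sample were compared with two-sided exact permutation tests, or permutation within time points (100000 resamples), in Python 3.11.15 with numpy 2.4.6 and scipy 1.17.1. Single cytosines were converted to log2(beta/(1 − beta)), after moving beta at least 0.001 off 0 and 1, and tested in R 4.3.3 with limma 3.58.1 (12 group means, eBayes) and Benjamini-Hochberg adjustment over all 702 tests. The tests were run on simulated data first. Groups and replicate numbers came from the sample titles. The replicate field of 1 control sample at 0 min gives 2 where its title gives 3, which bears on every result that uses the number. The study describes independent experiments, but the labels do not say whether replicates were separate cultures. The p-values therefore judge differences against the spread between these samples, and the level of replication behind that spread is not known.

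Named cytosines are the first, last, highest, and lowest of a block, its largest step, its smallest limma p, and those at a primer boundary. Members, lists, and tests were chosen with earlier results of these data known. Alternatives were another scale, the median, cytosines between primers, CpG sites, a replicate block, and left-out replicates.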

Additional observations from a re-analysis of the deposited data

Results flagged for a closer look

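In the near block, the difference between the EPS effects at 30 and 240 min had an unadjusted p under 0.05. EPS minus control was 0.656 percentage points at 30 min and −0.385 at 240 min, a change of −1.04 (exact permutation of the labels within each time point, two-sided, p = 0.045). With Benjamini-Hochberg adjustment over the 75 such comparisons of 5 regions it did not pass (exact permutation test, adjusted p = 0.938), and 3 of the 75, or 4.0%, had an unadjusted p under 0.05. The near change from 0 to 30 min was 1.08 (exact permutation test, p = 0.05, adjusted p = 0.938). At 30 min the EPS-stimulated samples had 1.97%, 2.00%, and 2.84%, and 2 of the 3 did not exceed the highest control sample. At 240 min they had 2.01%, 1.69%, and 2.06%, within or below the control range. The change was −0.758 without EPS replicate 3 at 30 min (exact permutation test, p = 0.075) and kept its sign in each of the 12 runs with 1 sample left out (−1.28 to −0.758), of which 6 had p above 0.05. This comparison was chosen after seeing the data. The far block changed by −0.0236 between the same times (exact permutation test, p = 0.915).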

How the results depend on the processing

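Of 414 values recomputed under an alternative, 339 kept their direction and side of the threshold, 64 changed sign, 6 lost and 2 gained a p under 0.05, and 3 moved. Some of the 339 could not differ. All near cytosines lay between the primers, so that alternative repeated the near values. The far cytosine at 1519 bp had a difference of 0 with beta held 0.01 from 0 and 1, and so had no direction. The changes of sign were in EPS differences that passed no test, except for the level of the blocks and their correlation, given below. The 6 losses were in the change of the near EPS effect from 30 to 240 min. The coverage minimum could not be tried, since depth is unknown.

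The level of the blocks changed order between primers (near minus far 1.50 percentage points) and on the log2(beta/(1 − beta)) scale (0.51). Removing the replicate number means, leaving out the control group at 120 min, and leaving out single samples for the near sides and, at 60 min, the far slope and the far mean between primers were chosen after seeing the data. With that group left out, the spread ratio was 1.61 (exact permutation test, p = 0.188). On the log2 scale, EPS minus control was 0.085 in the near block at 120 min, and in the far block −0.044 at 30 min, 0.22 at 60 min, and −0.044 at 120 min. In the far block at 60 min the median over cytosines gave 0.100 and cytosines between primers 0.0846, and at 120 min the latter gave −0.0290. On the percent scale, the difference between the blocks in EPS effect was 0.113 at 60 min and −0.629 at 120 min. The EPS difference in near slope at 180 min was −0.011 on the log2 scale. The EPS difference in far slope over all times was 0.0149 between primers and 0.037 on the log2 scale. Between primers it was 0.0326 at 0 min, 0.00371 at 120 min, 0.0140 at 180 min, and −0.0155 at 240 min, with CpG sites −0.00496 at 240 min, and on the log2 scale 0.042 at 0 min. The mean far slope was −0.0350 between primers, −4.06 with CpG sites, and −1.71 on the log2 scale. The log2 ratio of near to far SD was 0.92 on the percent scale (exact permutation test, p = 0.0474). The correlation between the blocks was 0.0741 on the log2 scale.

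With samples left out in turn, EPS minus control in the near block ranged from −0.257 to 0.592 at 60 min, −1.24 to 0.516 at 120 min, −0.283 to 0.107 at 180 min, and −0.278 to 0.105 over all times. In the far block it ranged from −0.133 to 0.198 at 30 min, −0.179 to 0.119 at 60 min, −0.0600 to 0.177 at 120 min, −0.0533 to 0.157 at 180 min, and −0.195 to 0.222 at 240 min. The difference between the blocks in EPS effect ranged from −0.35 to 0.26 at 60 min, −0.79 to 1.13 at 120 min, −0.18 to 0.14 at 180 min, and −0.26 to 0.13 over all times. The near slope difference ranged from −0.495 to 0.397 at 0 min, −0.173 to 0.379 at 180 min, and −0.341 to 0.762 at 240 min. The far slope difference ranged from −0.118 to 0.0898 at 30 min, −0.235 to 0.00902 at 120 min, −0.185 to 0.0739 at 180 min, and −0.155 to 0.187 at 240 min. The log2 ratio of SDs ranged from 0.070 without replicate 1 to 1.66 without replicate 3 (exact permutation test, p = 0.0166 for the latter).

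Taken over all times, the deviations of same-numbered EPS-stimulated and control samples over the 117 cytosines did not pair them. Of 18 pairs, 9 had a correlation over 0.1 (−0.801 to 0.922), and 6 were best matched with their own number. Times differed, with 0.922, 0.607, and 0.765 for replicates 1, 2, and 3 at 120 min, and −0.409, −0.260, and −0.393 at 0 min. The level of the far block did follow the number, as given above, so the paired values bear on it. With a replicate block the near difference over all times was −0.112 (permutation test, p = 0.533) and the far difference 0.0575 (p = 0.115), and limma with the block had 0 adjusted p under 0.05 and 9 unadjusted among all 702 tests (1.28%), of which 6 were among the 354 Ccnd1 tests (1.69%). The block changed no call.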
